A study of Mus musculus with 6 samples.

Results

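The kallikrein-related peptidases of the epidermis and their inhibitors were described in day 3 skin wounds of mice with both copies or 1 copy of Foxo1, a forkhead transcription factor. The 10 genes were taken by symbol: Klk5, Klk6, Klk7, Klk8, Klk10, Klk11, Klk13 and Klk14 as the proteases, and Spink5 and Cst6 as the inhibitors. All 10 were measured, each by 1 probe, among 16408 genes tested. Wounds of 3 wild-type (WT) and 3 FoxO1 +/- mice were compared. All animals were males of the strain given as C57/BL6, FoxO1 +/- being the only allele named and no age being stated. Full-thickness wounds, 4 per animal, were punched in back skin at 4 mm and cut out on day 3 with a 6 mm punch, so each RNA held the wound and a rim of surrounding skin. The labels do not limit the allele to a cell type. Each array was taken as 1 animal because the sample titles number WT and FoxO1 +/- from 1 to 3. The series also speaks of 3 independent experiments in each mouse, and how wounds were pooled is not stated, so each p-value speaks only of how these arrays spread.

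Kallikreins are secreted serine proteases that are made as inactive precursors and activate each other in a cascade in the outermost living layers of the epidermis. In normal skin Klk5, Klk7 and Klk14 cut the adhesion proteins that hold corneocytes together and so allow shedding, and Spink5 encodes LEKTI, the inhibitor that keeps them in check until it releases them near the skin surface. Cst6 encodes cystatin M/E, which inhibits cysteine proteases such as cathepsin L and legumain, and so restrains a neighbouring branch of barrier proteolysis rather than the kallikreins themselves. In wounds, kallikreins and the receptors they can cleave are studied for their part in keratinocyte movement and inflammation.

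The 8 kallikreins lie in 1 tandem cluster on mouse chromosome 7, where 26 protein-coding kallikrein genes follow each other. Their order there is Klk14, Klk13, Klk12, Klk11, Klk10, Klk9, Klk8, Klk7, Klk6, Klk5 and Klk4, followed by Klk15 and the Klk1-type genes. Spink5 and Cst6 lie on other chromosomes. RefSeq promoter windows (build GRCm38.p6) were matched by symbol for 8 of the 10 genes and gave 10 windows, each from 250 bases before to 50 bases after a transcript start. The 250 bases before the start are shown for Klk6 and Klk10, whose log2 differences between genotypes were the lowest of the kallikreins, for Klk5, which neighbours Klk6, and for Klk13, which holds the only forkhead core. All lie on the plus strand, at chr7:43712317-43712566 for Klk13, chr7:43780804-43781053 for Klk10, chr7:43824294-43824543 and chr7:43825200-43825449 for the first and second start of Klk6, and chr7:43842019-43842268 for Klk5. Capitals mark a forkhead core (TAAACA or its reverse complement) or a GC box (GGGCGG or its reverse complement).
Klk13: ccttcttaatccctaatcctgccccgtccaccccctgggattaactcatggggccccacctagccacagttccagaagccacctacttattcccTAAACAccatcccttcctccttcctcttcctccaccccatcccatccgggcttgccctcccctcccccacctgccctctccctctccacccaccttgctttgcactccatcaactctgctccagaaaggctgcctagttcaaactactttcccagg
Klk10: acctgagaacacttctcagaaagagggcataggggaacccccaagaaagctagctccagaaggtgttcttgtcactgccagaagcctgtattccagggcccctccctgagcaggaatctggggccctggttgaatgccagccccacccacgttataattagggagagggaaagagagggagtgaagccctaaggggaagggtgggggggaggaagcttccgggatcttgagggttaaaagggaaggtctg
Klk6 first start: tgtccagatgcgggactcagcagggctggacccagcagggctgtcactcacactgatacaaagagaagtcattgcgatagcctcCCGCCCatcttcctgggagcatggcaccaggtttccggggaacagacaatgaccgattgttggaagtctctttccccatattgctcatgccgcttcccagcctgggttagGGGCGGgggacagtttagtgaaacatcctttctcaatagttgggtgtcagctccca
Klk6 second start: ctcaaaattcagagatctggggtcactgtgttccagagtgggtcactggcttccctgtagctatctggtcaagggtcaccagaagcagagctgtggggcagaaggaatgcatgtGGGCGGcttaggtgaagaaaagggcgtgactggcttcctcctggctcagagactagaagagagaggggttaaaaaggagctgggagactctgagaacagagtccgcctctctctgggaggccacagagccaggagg
Klk5: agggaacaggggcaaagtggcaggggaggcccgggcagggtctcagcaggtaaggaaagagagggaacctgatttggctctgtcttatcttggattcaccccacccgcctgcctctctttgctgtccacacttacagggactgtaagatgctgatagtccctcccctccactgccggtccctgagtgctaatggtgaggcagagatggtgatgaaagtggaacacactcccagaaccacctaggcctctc

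In these letters Klk13 held the forkhead core at 156 bases before its start, and the first start of Klk6 held GC boxes at 166 and 56 bases before it. The second start of Klk6 held a GC box at 136 bases before it. Both strands of the 300-base windows were searched for 5 strings. The fuller forkhead string GTAAACA, which contains the core and is the one FoxO factors prefer, was in 0 of the 10 windows and in 3.6% of all 32851 promoters. The core TAAACA was in 1 of the 10 and in 13.4% of all promoters. The GC box, bound by Sp-family factors, was in 4 of the 10 windows, those of Klk7, Klk8 and both starts of Klk6, and in 35.7% of all. The AP-1 string TGAGTCA was in 0 of the 10 and in 5.2% of all, and TATAAA was in 0 of the 10 and in 13.6% of all. These matches are descriptions of short windows and not binding sites.

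On the WT arrays 71.3% to 71.9% of spots were well above background, against 71.3%, 70.1% and 64.3% on FoxO1 +/- replicates 1, 2 and 3. Probes for Foxo1 checked the labels: the log2 difference was -0.48 on one and -0.90 on another, and on both every FoxO1 +/- array was below every WT array. Levels are log2 values relative to the 75th percentile of the same array and are compared only within a gene. Differences are FoxO1 +/- minus WT, with the standard error (SE) of limma, a linear model that shares variance information among genes. WT replicate 1 stood apart in hair follicle markers, whose mean level over the 12 measured was 0.41 on it, against -3.11 and -2.53 for WT replicates 2 and 3 and a range of -3.57 to -3.13 for FoxO1 +/- wounds. All 12 markers of differentiated, 8 of basal and 8 of wound-edge keratinocytes were above background on every array, as were the measured markers of fibroblasts, neutrophils, macrophages, mast cells and skeletal muscle, so each RNA held many cell types besides the epidermis.

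No kallikrein or inhibitor passed a limma adjusted p of 0.05. Of the 10 genes, 0 were called, against 1 of all 16408 genes, or 0.00609%. Klk6 and Cst6 had the smallest p-values, with log2 differences of -0.56 ± 0.21 and -0.87 ± 0.29 (SE, n = 3 per genotype). Klk5, Klk7 and Klk8, proteases of the same cascade and the same locus, differed by 0.01, -0.07 and -0.02. In whole wounds fewer cells of a type and less RNA per cell cannot be told apart.

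**Figure D1:**
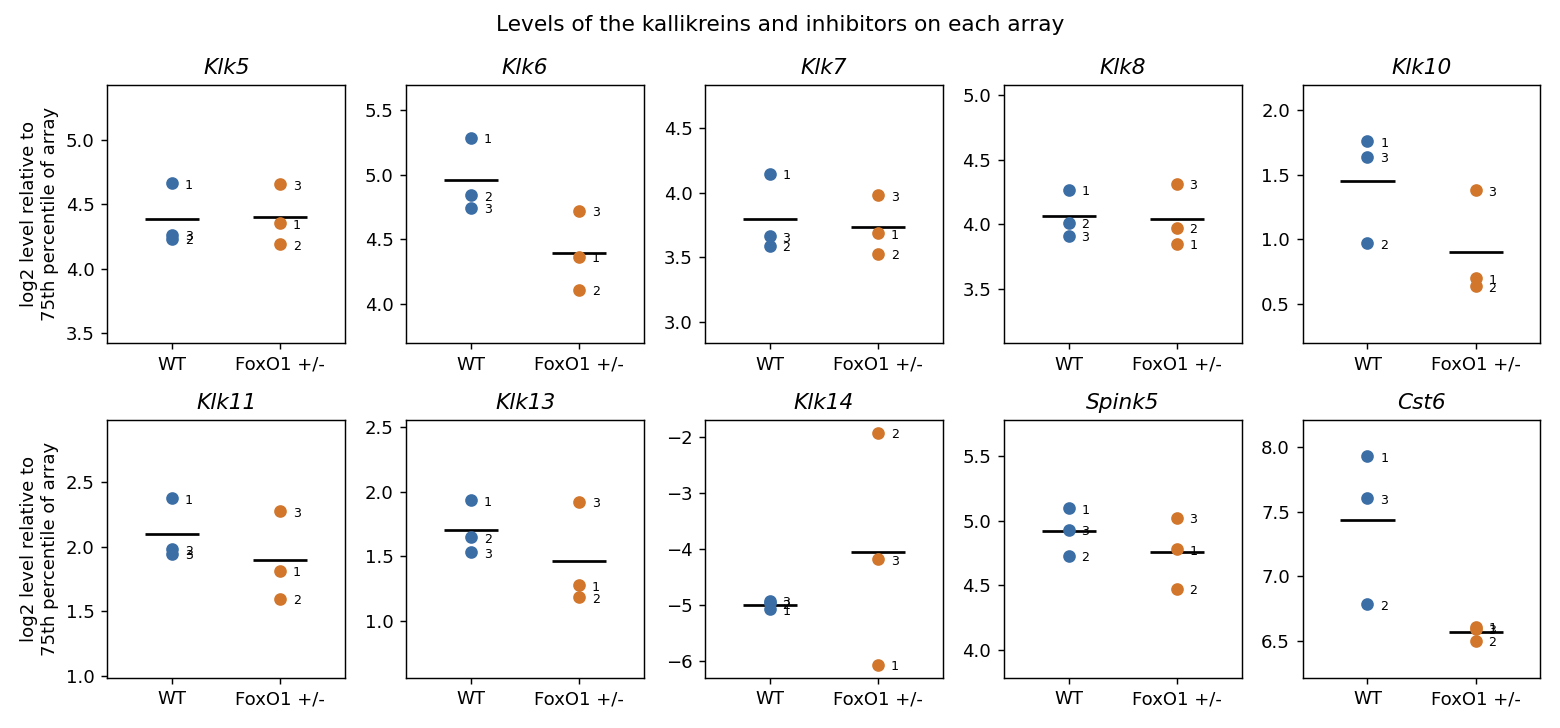
Log2 level of each gene on each array, relative to the 75th percentile of that array, with WT arrays in blue and FoxO1 +/- arrays in orange, replicate numbers beside the points and black lines at the group means. The vertical axis spans the same number of log2 units for every gene except Klk14; the groups do not overlap for Klk6 and Cst6, and do overlap for the other 8 genes.

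At an unadjusted limma p of 0.05, 2 of the 10 genes, Klk6 and Cst6, were lower in FoxO1 +/- wounds, beside 2.83% of all genes that were. The same 2 genes had groups that did not overlap, with FoxO1 +/- lower, beside 4.56% of all genes. They also did not overlap with array medians, quantile normalization or normexp background correction, beside 6.00%, 6.32% and 3.64% of all genes. On the unscaled log2 signal the groups of 6 genes did not overlap, those of Klk8, Klk11, Klk13 and Spink5 being added, beside 27.7% of all genes. Log2 differences were below 0 for 8 of the 10 genes, beside 46.3% of all genes, with a median of -0.18 over the 10 and 0.01 over all genes. That median was -0.07 without WT replicate 1, which left 6 genes below 0, -0.08 without FoxO1 +/- replicate 2, -0.34 without FoxO1 +/- replicate 3 and -0.36 with slide row as a block. Klk5 and Klk14 were the genes above 0. Klk5, Klk7 and Klk8 lay between the quartiles of all genes, -0.08 and 0.10, and the other 7 genes outside them. Which genes reached an unadjusted limma p of 0.05 turned on single arrays. None did without WT replicate 1 or without FoxO1 +/- replicate 2, beside 5.62% and 4.13% of all genes in either direction. Klk6 alone did without WT replicate 3, beside 4.73% of all genes. Klk6, Klk10 and Klk13 did without FoxO1 +/- replicate 3, beside 6.21%. Without WT replicate 2 they were Klk10 and Cst6, beside 9.14%, and without FoxO1 +/- replicate 1 Klk14 and Cst6, beside 6.61%. Neither Klk6 nor Cst6 therefore kept the call throughout. With slide row as a block, a fit in which FoxO1 +/- replicate 1 alone is set against the WT arrays, there were 0. An exact permutation test of 3 against 3 arrays cannot give a two-sided p under 0.1.

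**Figure D2:**
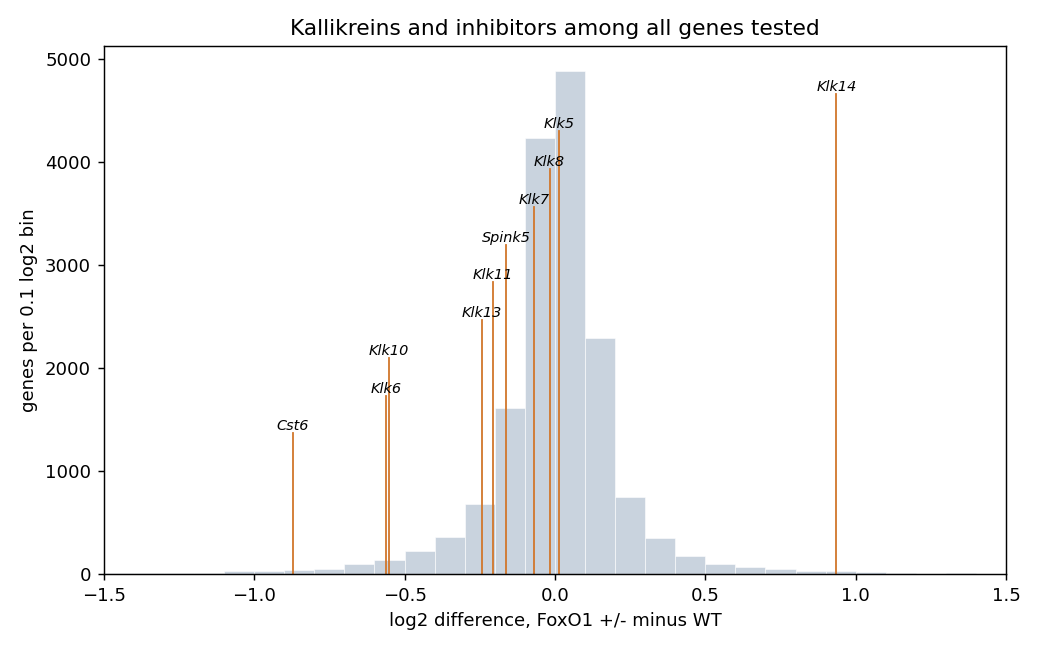
Histogram of the log2 difference between genotypes (FoxO1 +/- minus WT, horizontal axis) over all genes tested, counted per 0.1 log2 bin, with the 10 genes as orange lines whose heights only separate the labels. Klk5, Klk7 and Klk8 lie in the centre, Klk11, Klk13 and Spink5 on the left shoulder, Klk6, Klk10 and Cst6 in the left tail, and Klk14 in the right tail.

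Klk5 is the trypsin-like protease that can activate itself and then Klk7 and Klk14, and is placed at the head of the cascade. Its level was 4.66, 4.23 and 4.26 on WT replicates 1 to 3 and 4.35, 4.19 and 4.65 on FoxO1 +/- replicates 1 to 3. The groups overlapped along their whole range, with WT replicate 1 and FoxO1 +/- replicate 3 both high. The log2 difference was 0.01 ± 0.17 (95% interval -0.40 to 0.43, limma adjusted p = 0.998). Its sign turned with the scaling, being -0.02 with array medians and -0.03 with quantile normalization.

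Klk7, the chymotrypsin-like protease that cuts corneodesmosin, stood at 4.15, 3.59 and 3.66 on the WT arrays. On the FoxO1 +/- arrays it stood at 3.69, 3.53 and 3.98. As for Klk5, WT replicate 1 and FoxO1 +/- replicate 3 were the high arrays, and the groups overlapped. Between genotypes the log2 difference was -0.07 ± 0.19 (95% interval -0.53 to 0.39, limma adjusted p = 0.995), and it became 0.10 without WT replicate 1. Klk8, also called neuropsin, a trypsin-like protease of the upper epidermis, was measured at 4.27, 4.01 and 3.91 in WT wounds. In FoxO1 +/- wounds it was measured at 3.85, 3.97 and 4.31. The highest array was FoxO1 +/- replicate 3 and the lowest FoxO1 +/- replicate 1, so the FoxO1 +/- arrays enclosed those of the WT. For Klk8 the log2 difference was -0.02 ± 0.15 (95% interval -0.39 to 0.36, limma adjusted p = 0.998), and it became 0.08 without WT replicate 1.

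Klk14, a trypsin-like protease with strong activity in human stratum corneum, was the dimmest signal of the set and gave the widest error. Its processed signal, in linear intensity units, was 34.8, 36.7 and 42.8 across the WT arrays and 16.4, 295 and 49.6 across the FoxO1 +/- arrays, where the lowest signal counted as well above background on an array was 18.6 to 27.3. A single array, FoxO1 +/- replicate 2, was therefore far above the other 5, and replicate 1 was not well above background. On the log2 scale the levels were -5.08, -4.97 and -4.92 against -6.06, -1.92 and -4.18. The log2 difference of 0.94 ± 0.97 (95% interval -1.43 to 3.30, limma adjusted p = 0.952) became -0.13 without FoxO1 +/- replicate 2.

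Klk6, known as neurosin from brain and also made by keratinocytes, is a trypsin-like protease. Its levels were 5.29, 4.84 and 4.74 across the WT arrays and 4.36, 4.11 and 4.72 across the FoxO1 +/- arrays. All 3 FoxO1 +/- arrays were below all 3 WT arrays, although FoxO1 +/- replicate 3 and WT replicate 3 were only 0.02 apart. The means were 4.96 ± 0.29 and 4.40 ± 0.31 (SD, n = 3 each). The log2 difference was -0.56 ± 0.21 (95% interval -1.06 to -0.06), a ratio of 0.678, with a limma p of 0.0351 and an adjusted p of 0.781. By that p, Klk6 ranked 735 of 16408 genes. Leaving out single arrays moved the difference between -0.72, without FoxO1 +/- replicate 3, and -0.40, without WT replicate 1. Slide row 1 carried all WT arrays plus replicate 1 of FoxO1 +/-; within it, and with slide row as a block, the difference was -0.59 in each case (limma adjusted p = 1).

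Klk10, first described as a gene whose expression is lost in breast tumours, was similar in size and wider in spread. Its level was 1.76, 0.97 and 1.64 in WT wounds and 0.70, 0.63 and 1.38 in FoxO1 +/- wounds. The groups overlapped because WT replicate 2 was low and FoxO1 +/- replicate 3 high. The log2 difference was -0.55 ± 0.28 (95% interval -1.24 to 0.14), a ratio of 0.683, with a limma adjusted p of 0.845. Its lowest value was -0.79 when WT replicate 2 was left out and its highest -0.40 when WT replicate 1 was, and was -0.76 within slide row 1 and with slide row as a block.

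Klk11 and Klk13, trypsin-like kallikreins of stratified epithelia, lay between these groups. Klk11 stood at 2.37, 1.98 and 1.94 across the WT arrays and 1.81, 1.59 and 2.27 across the FoxO1 +/- arrays. For Klk13 the WT levels were 1.93, 1.65 and 1.53 and the FoxO1 +/- levels 1.27, 1.18 and 1.92. In both genes FoxO1 +/- replicates 1 and 2 were below every WT array and FoxO1 +/- replicate 3 was near the highest, so the groups overlapped. The log2 differences were -0.21 ± 0.21 for Klk11 (95% interval -0.71 to 0.30) and -0.24 ± 0.22 for Klk13 (95% interval -0.78 to 0.30), with limma adjusted p-values of 0.949 and 0.937. Without FoxO1 +/- replicate 3 they were -0.40 and -0.47, and without FoxO1 +/- replicate 2 -0.06 and -0.11.

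**Figure D3:**
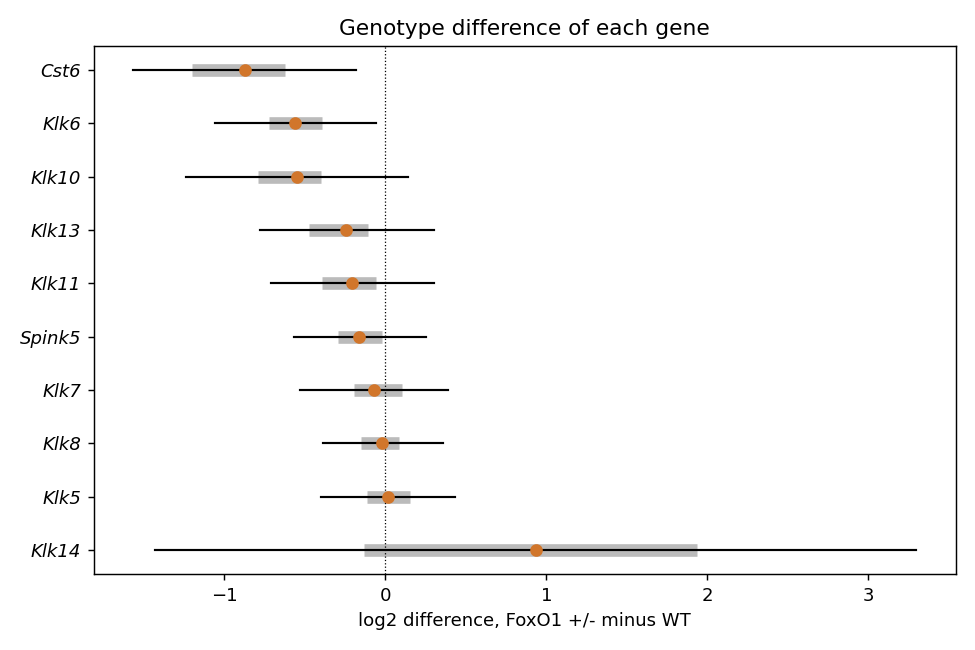
Log2 difference between genotypes (FoxO1 +/- minus WT, horizontal axis) for each of the 10 genes, with points at the estimate, black lines for limma's 95% interval and grey bars for the range when each array was left out in turn. The intervals of Cst6 and Klk6 end below 0, those of the other 8 genes include 0, and the grey bars of Klk5, Klk7, Klk8 and Klk14 cross 0.

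Of the inhibitors, Spink5 had a level of 5.10, 4.73 and 4.93 across the WT arrays and 4.78, 4.47 and 5.03 across the FoxO1 +/- arrays. The groups overlapped, with WT replicate 1 highest and FoxO1 +/- replicate 2 lowest. Its log2 difference was -0.16 ± 0.17 (95% interval -0.57 to 0.25, limma adjusted p = 0.952). It was -0.07 without WT replicate 1 and -0.02 without FoxO1 +/- replicate 2.

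Cst6 had the lowest log2 difference of the 10 genes. Its processed signal was 285783, 126363 and 252531 intensity units across the WT arrays and 106819, 100993 and 86666 across the FoxO1 +/- arrays, or log2 levels of 7.93, 6.78 and 7.60 against 6.61, 6.50 and 6.59. All FoxO1 +/- arrays were below all WT arrays, and they were close together, while WT replicate 2 was near them and WT replicates 1 and 3 were well above. The means were 7.44 ± 0.59 in WT and 6.57 ± 0.06 in FoxO1 +/- wounds (SD, n = 3 each), so the spread lay almost wholly among the WT arrays. The log2 difference was -0.87 ± 0.29 (95% interval -1.57 to -0.18), a ratio of 0.547, with a limma p of 0.0217 and an adjusted p of 0.700. Cst6 ranked 508 of 16408 genes by p and 159 by lowest difference. Leaving out WT replicate 2 gave -1.20 (limma adjusted p = 0.0674) and leaving out WT replicate 1 gave -0.63. Within slide row 1 and with slide row as a block the difference was -0.83.

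Except for Klk14, the genes largely shared their high and low arrays. WT replicate 1 was the highest array for 8 of these 9 genes and FoxO1 +/- replicate 2 the lowest for 8 of 9. Klk8 was the exception in each case, and for Klk5 the highest was a near tie, 4.66 against 4.65 on FoxO1 +/- replicate 3. The share of all genes with these extremes was not counted. The keratinocyte marker lists differed in their high and low arrays. Mean levels of the 8 basal keratinocyte markers were 5.01, 4.65 and 4.76 in WT and 4.72, 4.38 and 4.80 in FoxO1 +/- wounds, with WT replicate 1 highest and FoxO1 +/- replicate 2 lowest. Those of the 12 differentiated keratinocyte markers were 4.93, 4.60 and 4.70 against 4.75, 4.78 and 5.16, and those of the 8 wound-edge markers 6.65, 6.54 and 6.24 against 6.38, 6.03 and 6.81. FoxO1 +/- replicate 3 was highest for both of these lists, and WT replicate 2 lowest for the differentiated and FoxO1 +/- replicate 2 lowest for the wound-edge markers. The summed linear level of the basal markers, relative to the 75th percentile, ranged from 545 to 670 in WT and 442 to 633 in FoxO1 +/- wounds. For the differentiated markers the ranges were 779 to 983 and 875 to 1150, and for the wound-edge markers 1000 to 1250 and 916 to 1430. No marker of these lists passed a limma adjusted p of 0.05, and the part of keratinocyte content in the kallikrein levels was not tested.

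When levels were taken relative to the mean of the differentiated keratinocyte markers of the same array, an alternative chosen after the values were seen, the log2 differences were -0.71 for Klk6, -0.70 for Klk10, -1.02 for Cst6 and -0.14 for Klk5 (limma adjusted p = 0.284, 0.386, 0.159 and 0.936). Relative to the basal keratinocyte markers they were -0.39 for Klk6, -0.38 for Klk10, -0.70 for Cst6 and 0.19 for Klk5. Klk7, Klk8 and Spink5 were at 0.10, 0.15 and 0.01 on the basal scale. Such a scale shifts every gene by the same amount and leaves their order as it was, so it is no test of keratinocyte content. The median over the 10 genes was -0.33 on the first scale and -0.01 on the second, beside -0.14 and 0.18 over all genes. In the main comparison the medians over the 10 and over all genes were -0.18 and 0.01.

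A view that needs no scaling between arrays is the position of each gene relative to Klk5 on the same array, here centred over the 6 arrays and given as a description chosen after the values were seen. Klk6 stood at 0.34, 0.32 and 0.20 across the WT arrays and -0.28, -0.37 and -0.22 across the FoxO1 +/- arrays. The groups did not overlap, with a difference of -0.57 and an SD of 0.08 in each. Klk5 was picked with the values known and had the same highest and lowest arrays as Klk6. The SD of 0.08 therefore cannot be set against the difference as a test. On the scale of the main comparison the SDs of Klk6 were 0.29 in WT and 0.31 in FoxO1 +/- wounds, with a limma adjusted p of 0.781. Relative to Klk5, 7 of the 9 other genes had FoxO1 +/- arrays below all WT arrays, beside 2.57% of all genes. Klk8 and Klk14 were the exceptions. That share is not a like background, since most of these genes had the same highest and lowest arrays as Klk5. Klk5 also had the highest log2 difference of the set after Klk14, so every gene but Klk14 fell below it. Several of the 7 were near ties. Klk7 differed by only -0.08, Klk13 stood at 0.08 on WT replicate 3 and FoxO1 +/- replicate 3, and Spink5 at -0.01 and -0.02 on replicate 1 of each. For Klk10 the positions were 0.31, -0.05 and 0.59 against -0.44, -0.34 and -0.06, a difference of -0.56 with WT replicate 2 and FoxO1 +/- replicate 3 almost touching. For Cst6 they were 0.66, -0.06 and 0.73 against -0.35, -0.30 and -0.67, a difference of -0.89. Klk7 and Klk8 kept within -0.17 and 0.12 on every array, and Klk8 differed by -0.03. Klk11, Klk13 and Spink5 differed by -0.22, -0.26 and -0.17.

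**Figure D4:**
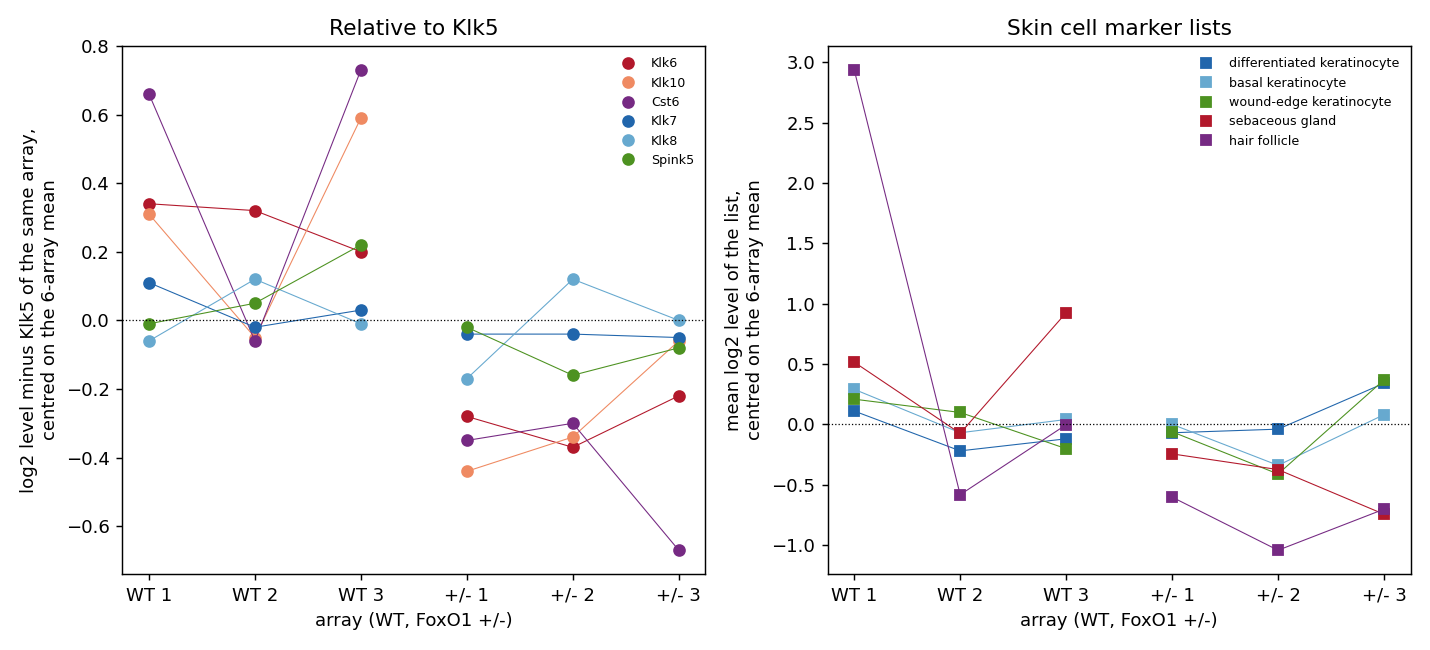
Left, log2 level of 6 genes minus that of Klk5 on the same array, centred on the mean of the 6 arrays; right, mean log2 level of skin cell marker lists on each array, centred likewise, with thin lines that only join the points of a gene or list. Klk6 lies at 0.20 or above across the WT arrays and at -0.22 or below across the FoxO1 +/- arrays, and the hair follicle markers are high on WT replicate 1.

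Along the locus, neighbouring genes had different values. Klk6, at -0.56, lay between Klk7 at -0.07 and Klk5 at 0.01, and Klk10, at -0.55, lay between Klk11 at -0.21 and Klk9 at -0.04. Klk9, a kallikrein of the same epidermal cluster, was measured at 4.51, 4.28 and 4.05 in WT and 4.06, 4.02 and 4.66 in FoxO1 +/- wounds, with overlapping groups. Of the 18 other kallikreins 15 were measured, Klk15, Klk1b1 and Klk1b16 not being kept as well above background. None of the 15 reached an unadjusted limma p of 0.05, 9 were below 0 and 6 above it, and their median was -0.03. The genes with the smallest p among them were Klk1b22 at 0.22 ± 0.13, Klk4, the enamel kallikrein, at -0.15 ± 0.12 and Klk1b8 at -0.10 ± 0.10. Klk1b genes are near-identical copies, and their probes may share signal.

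**Figure D5:**
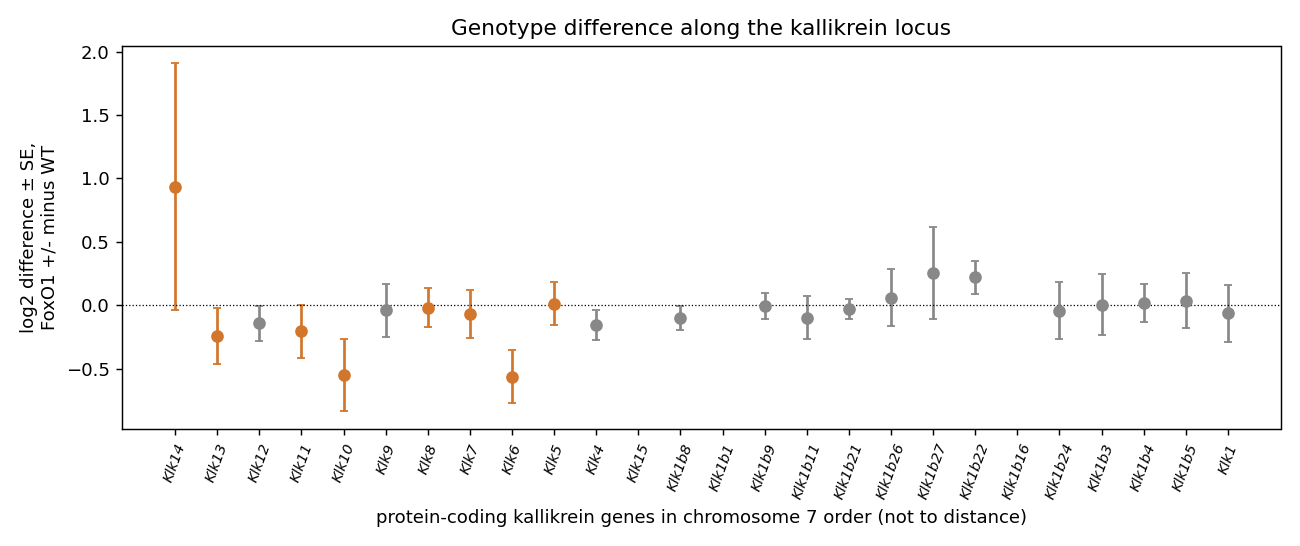
Log2 difference between genotypes (FoxO1 +/- minus WT, vertical axis, error bars limma SE) for the protein-coding kallikrein genes in their order on chromosome 7, not to distance, with the 8 epidermal kallikreins described here in orange and the others in grey. Klk6 and Klk10 lie below genes on either side of them, Klk14 has the widest error, and Klk15, Klk1b1 and Klk1b16 have no point.

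Of the 13 other listed epidermal proteases and activators, all measured, none reached an unadjusted limma p of 0.05 and the median difference was 0.00. Those with the smallest p were the membrane protease Tmprss11e at -0.54 ± 0.30, the proprotein convertase Furin at 0.16 ± 0.09, and St14, matriptase, which can activate kallikrein precursors, at -0.36 ± 0.24. Among the 16 other serine protease inhibitors, 7 were below 0 and 9 above it, with a median of 0.05. Spink7, of the same inhibitor family as Spink5, was the only one past an unadjusted limma p of 0.05 (limma adjusted p = 0.643). Its level was -2.97, -2.96 and -4.96 across the WT arrays and -2.32, -0.02 and 0.37 across the FoxO1 +/- arrays, so that FoxO1 +/- replicates 2 and 3 were far above the rest. Its log2 difference was 2.97 ± 0.87, opposite in sign to that of Spink5. The next were Serpina12, vaspin, an inhibitor of Klk7, at 0.25 ± 0.14 and Spint2, an inhibitor of matriptase, at 0.14 ± 0.08.

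Among the proteases that cystatin M/E inhibits, cathepsin L (Ctsl) was at 0.07 ± 0.09 and legumain (Lgmn) at 0.08 ± 0.07, both named as targets of Cst6 and both with adjusted p-values of limma of 0.933 or above. Of the 17 genes of this branch, which also holds transglutaminases and the other cystatins, 3 were below 0 and 14 above it, with a median of 0.09. Tgm3, a transglutaminase that crosslinks cornified proteins and is activated by cleavage, was the only one past an unadjusted limma p of 0.05, at -0.29 ± 0.08 (limma adjusted p = 0.639). Tgm1, the membrane-bound transglutaminase, was at -0.46 ± 0.22, and Ctsc, cathepsin C, at -0.15 ± 0.08. These were the 3 genes of the branch below 0.

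Of the 13 listed kallikrein substrates and receptors 11 were measured, with 9 below 0 and 2 above it and a median of -0.09. No probe was matched here for Dsg1c and Flg. F2rl1 encodes PAR2, the receptor that Klk5 and Klk14 activate by cutting its extracellular end. It was measured at -3.03, -3.02 and -3.10 in WT wounds and -3.50, -3.63 and -3.41 in FoxO1 +/- wounds. The arrays of each genotype were close together and the groups did not overlap. For F2rl1 the log2 difference was -0.46 ± 0.08, with a limma p of 0.00126 and an adjusted p of 0.369. F2r, the related thrombin receptor PAR1, was at 2.14, 1.68 and 1.85 against 1.46, 1.42 and 1.46, a log2 difference of -0.44 ± 0.13 with no overlap (limma adjusted p = 0.636). Camp, the cathelicidin precursor that epidermal kallikreins process into antimicrobial peptides, was at 0.70 ± 0.25 with no overlap (limma adjusted p = 0.776). The adhesion substrates corneodesmosin (Cdsn), desmocollin 1 (Dsc1) and desmoglein 1 (Dsg1a and Dsg1b) had log2 differences of -0.19, -0.11, -0.07 and -0.09, with overlapping groups.

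Of the skin appendages, all 8 measured sebaceous gland markers were below 0, with a median log2 difference of -1.03, and 4 of them had groups that did not overlap. Their mean level was 1.53, 0.94 and 1.94 across the WT arrays and 0.77, 0.64 and 0.27 across the FoxO1 +/- arrays, and their summed linear level 71.7 to 143 against 43.8 to 49.8. WT replicate 2 was the lowest WT array for these markers and also for Cst6 and Klk10, but not for Klk6. FoxO1 +/- replicate 3 was the lowest array for these markers, while it was the highest FoxO1 +/- array for Klk6 and Klk10. For Cst6 it was neither, at 6.59 beside 6.61 and 6.50 on FoxO1 +/- replicates 1 and 2. All 12 measured hair follicle markers were below 0 too, with a median of -1.55 and a summed level of 3.34 to 59.2 in WT and 2.52 to 3.11 in FoxO1 +/- wounds, the top of the range being WT replicate 1. Without WT replicate 1 that median was -0.43, and with normexp background correction it was -0.93. Of these markers 4, Krt27, Krt34, Krt35 and Krt71, were not well above background on every FoxO1 +/- array, which limits how far their differences can be read. Without WT replicate 1 Cst6 was at -0.63 and Klk6 at -0.40. Adipocyte markers were above 0 for 8 of 8, with a median of 0.79, and macrophage markers for 5 of 5 measured, with a median of 0.25. The other 6 marker lists, of neutrophils, fibroblasts, endothelium, T cells, mast cells and skeletal muscle, had medians from -0.30 to 0.28. No marker gene of any of these lists passed a limma adjusted p of 0.05. The part of these tissue components in the values of Cst6, Klk6 and Klk10 was not tested.

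Genes whose centred levels over the 6 arrays lay nearest to those of the kallikreins and inhibitors were found by the root-mean-square distance among the other 16398 genes, with no filter on function. For the mean profile of all 8 kallikreins, in which including Klk14 moved FoxO1 +/- replicate 2 from -0.35 to 0.02, genes among the 5 nearest were Bckdhb (0.0442), Crygs (0.0638), Pdia2 (0.0695) and Inhbb (0.0714), distances in log2 units. Without Klk14, a choice made after the values were seen, the nearest were Ttc39a (0.0358), Fat2 (0.0420), Plek2 (0.0489), Chia1 (0.0608) and Cdsn (0.0652), the last of these the corneodesmosin gene. This profile was high on WT replicate 1 and FoxO1 +/- replicate 3 and low on FoxO1 +/- replicate 2. Spink5 lay at 0.101 from it, and Cst6 at 0.432.

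The genes nearest to Spink5 were Hip1r (0.0398), S100a14 (0.0474), Clic3 (0.0529), Prdm1 (0.0548), which encodes Blimp1, a transcriptional repressor active in terminal keratinocyte differentiation, and Fthl17a (0.0556). Nearest to Cst6 were Calhm5 (0.0616), the vitamin D receptor gene Vdr (0.0819), the R-spondin receptor gene Lgr5 (0.108), Scube2 (0.109) and the R-spondin gene Rspo4 (0.115). All 5 of these were high on WT replicates 1 and 3 and low on the other 4 arrays, with log2 differences of -0.82 to -0.70. Of the other members, Klk10 at 0.295 and Klk6 at 0.354 were nearest to Cst6, and Klk14 was farthest. Each of these likenesses rests on 6 arrays.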

How the data were processed

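Gene expression was measured on 1-colour Agilent arrays in 6 wound RNAs. The authors' deposited scanner output gives an intensity per spot, linear, background-subtracted and not scaled between arrays, extracted with Feature Extraction 10.7.1.1 per the file headers (9.1 per the submitters' processing notes). All 6 arrays were on 1 slide from 1 scan, and slide row 2 held FoxO1 +/- replicates 2 and 3. Processed signals were converted to log2, spots of a probe averaged without outlier-flagged spots, and the 75th percentile of an array's non-control probes subtracted from its values. Of 55681 probes, 36 without a usable value were left out. A probe was kept where all arrays of either genotype had it well above background, and the brightest stood for each gene. Symbols came from RefSeq accessions, since the array annotation is on mm9 and the reference table on GRCm38.p6. The comparison used limma 3.58.1 in R 4.3.3, two-sided, with Benjamini-Hochberg adjustment over 16408 genes, tested on simulated data. The number of arrays limits the precision. The deposited value table matched the processed signal, in intensity units, within 0.497% and was linear and not centred, with column medians of 99.8, 103 and 112 (WT) and 97.2, 98.9 and 82.4 (FoxO1 +/-).

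The genes and lists were chosen with earlier results of these data known. Named in each list were up to 3 genes with the smallest limma p, and for likeness of pattern the 5 nearest genes, of which 1 is not reported here; genes named beyond this were chosen after their values were seen. Alternatives covered scaling, background (normexp with an offset of 50, on the median signal), the filter on dim probes, the probe rule, flags, the variance model, the replicate number, slide row and each array in turn.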

Additional observations from a re-analysis of the deposited data

How the results depend on the processing

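None of the 10 genes passed a limma adjusted p of 0.05 under any of 16 other settings of the processing, and their median log2 difference was below 0 in all 16. Of 160 single-gene values, 144 kept their sign and 16 turned, all of them for Klk5, Klk7, Klk8 and Klk14. Not all of these values, or of the 16 medians, were free to move. The filter on dim probes and the mean over kept probes could not change them, since each gene had 1 probe. The intensity trend with robust variance and the replicate block left each difference as it was, with the median at -0.183. Slide row as a block and slide row 1 alone gave the same differences. The counts therefore overstate how often the signs were put to a check. Klk5 was -0.0161 with array medians, -0.0344 with quantile normalization, -0.0384 with normexp and -0.0326 with slide row as a block or slide row 1 alone, and ran from -0.114 to 0.152 when arrays were left out in turn. Klk7 ran from -0.194 to 0.104, Klk8 from -0.153 to 0.0831 and Klk14 from -0.13 to 1.94 in those fits, and Klk14 was -1.07 with slide row as a block or row 1 alone. Relative to differentiated keratinocyte markers, added after seeing the data, Klk5 was -0.137, and relative to basal markers Klk7 was 0.102, Klk8 0.153 and Spink5 0.0101.

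The count of all genes past an adjusted p of 0.05, 1 as reported, was 5 with array medians, 2 with quantile normalization, 0 with normexp, 3 without the filter on dim probes, 0 with an intensity trend and robust variance, 7 with slide row as a block, 5 in row 1 alone, 0 to 28 with arrays left out (28 without WT replicate 2), and 38 and 201 relative to the differentiated and basal markers. At an unadjusted p it was 1026, and 478 with slide row as a block, 548 in row 1 alone and 678 to 1510 with arrays left out. Of the 10 genes, 0 reached an unadjusted p with slide row as a block, 1 in row 1 alone (Klk14) and 0 to 3 with arrays left out. Row fits rest on FoxO1 +/- replicate 1 alone against 3 WT arrays, assumed to vary like the others. On the differentiated and basal marker scales every log2 difference shifted by the same amount, with medians over all genes of -0.139 and 0.182. The part of that shift in the counts of 38 and 201 was not separated. The cause of the other moves was not tested.

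The replicate numbers were not taken as pairs in the main comparison. Deviations of same-numbered arrays correlated at -0.068, -0.139 and -0.301, and those of differently numbered arrays at -0.122 to 0.238. With 3 arrays per genotype these values cannot settle whether the samples were paired. With the replicate number as a block 0 genes passed an adjusted p. At an unadjusted limma p, Klk10 and Cst6 passed with it, and Klk6 did not. Of 288 medians of gene lists, 268 moved by less than the spread between arrays. The intensity trend and the replicate block could not move any of them. The signal of Klk14 lay near background.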
